A study of Mus musculus with 38 samples.

Results

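The genes described here are 42 genes of the cell cycle and of DNA replication, out of 43346 genes counted in macrophages sorted from the mouse lung. They were taken by name and divided into 21 mitotic genes, 16 S-phase genes and 5 regulators of G1 (the D cyclins Ccnd1, Ccnd2 and Ccnd3 and the CDK inhibitors Cdkn1a and Cdkn1b). The S-phase class also holds the genes that bring cells into S phase, and Ccna2, whose cyclin acts in S phase and in G2, was placed with the mitotic class. RNA was sequenced from 3 interstitial macrophage populations and from alveolar macrophages (AM), with 3 libraries (A, B and C) of each. All cells came from naive C57Bl/6 mice of 8 to 10 weeks, were MerTK-positive and CD64-positive by label, and were sorted from digested, perfused lungs. The interstitial cells were CD11b-positive and lacked Siglec F. IM1 was MHC class II low and CD206 high, IM2 was high for both, and IM3 was MHC class II high and CD206 low. AM carried CD11c and Siglec F and lacked CD11b. The labels leave the animals behind each library unstated, so p-values measure only the spread between these libraries. The libraries held 11818981 to 15758326 reads assigned to genes, and 3 counts in a library were 0.19 to 0.254 CPM (counts scaled for library size and composition), which is the limit that a count of 0 allows for counting error alone.

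Division of a cell runs through G1, in which D cyclins with CDK4 and CDK6 release E2F factors from RB, then S phase, in which origins licensed by ORC, CDC6, CDT1 and the MCM2-7 helicase fire and the nucleotide enzymes are raised, then G2 and mitosis under cyclin B and CDK1. E2F sites drive many G1/S genes, while many G2/M genes carry CCAAT boxes and a cell cycle homology region (CHR), which is bound by the DREAM and MuvB complexes. Tissue macrophages are known to renew themselves by division in place, and alveolar macrophages in particular do so in the adult lung. The summed level of 10 alveolar markers (Siglecf, Marco, Fabp4 and others) was 70.1 to 292.0 CPM in the 9 interstitial libraries and 52275.7 to 59118.9 CPM in AM. The summed level of 10 interstitial markers (Cx3cr1, C1qa, C1qb and others) was 20146.0 to 50392.8 CPM in the interstitial libraries and 22.8 to 28.4 CPM in AM. Markers of T and NK cells summed to 4202.5 CPM in IM1 replicate A, 1080.8 in IM2 replicate B and 657.6 in IM3 replicate B, and to at most 7.5 CPM in the other libraries. Trac alone was at 4200.53, 1077.83 and 649.91 CPM in these libraries, and Cd3e was at most 0.07 CPM in every library. IM1 replicate A was also the shallowest library.

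Upstream sequences are shown for the members on which the results turn: for the mitotic class Ccnb2 and Cenpf, called between every pair of interstitial populations, with Top2a and Cdk1, and for the S-phase class Rrm2, which differed most from AM, with Mcm6 and Cdk2. Each is the sequence up to 150 bases before the gene start in RefSeq (GRCm38.p6), without bases inside the GENCODE gene. All lie on the minus strand except that of Rrm2 and read 5′ to 3′ on the strand of the gene. Capitals mark matches, on either strand, to CCAAT, to the CHR as TTTGAA or TTCGAA, or to an E2F site as TTTCCCGC, TTTGGCGC, TTTCGCGC or TTTGCCGC. The spans are chr9:70421555-70421704 for Ccnb2, chr1:189688087-189688236 for Cenpf, chr11:99024190-99024339 for Top2a and chr10:69352939-69353062 for Cdk1. They are chr12:24708104-24708240 for Rrm2, chr1:128359706-128359855 for Mcm6 and chr10:128705052-128705201 for Cdk2.
Ccnb2: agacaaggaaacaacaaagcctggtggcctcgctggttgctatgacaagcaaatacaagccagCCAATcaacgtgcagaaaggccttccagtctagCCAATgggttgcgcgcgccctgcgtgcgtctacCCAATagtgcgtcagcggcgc
Cenpf: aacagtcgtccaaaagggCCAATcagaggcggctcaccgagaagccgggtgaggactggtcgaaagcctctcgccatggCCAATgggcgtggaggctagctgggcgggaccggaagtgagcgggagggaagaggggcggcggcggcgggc
Top2a: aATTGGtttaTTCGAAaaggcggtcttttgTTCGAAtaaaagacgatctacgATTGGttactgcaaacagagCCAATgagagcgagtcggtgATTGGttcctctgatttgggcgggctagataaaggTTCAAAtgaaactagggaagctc
Cdk1: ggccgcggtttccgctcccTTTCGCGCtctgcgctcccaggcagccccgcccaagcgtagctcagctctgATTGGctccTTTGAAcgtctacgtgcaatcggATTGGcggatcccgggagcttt
Rrm2: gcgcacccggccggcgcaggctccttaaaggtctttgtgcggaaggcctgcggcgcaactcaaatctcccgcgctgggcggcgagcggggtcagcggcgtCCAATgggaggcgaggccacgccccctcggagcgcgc
Mcm6: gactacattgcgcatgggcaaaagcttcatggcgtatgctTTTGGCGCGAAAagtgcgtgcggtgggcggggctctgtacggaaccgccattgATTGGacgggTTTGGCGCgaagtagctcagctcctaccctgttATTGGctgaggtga
Cdk2: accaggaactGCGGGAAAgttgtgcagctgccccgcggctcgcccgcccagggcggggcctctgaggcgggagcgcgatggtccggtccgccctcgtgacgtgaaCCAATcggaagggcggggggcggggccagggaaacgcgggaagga
The sequence of Top2a held 4 CCAAT matches and 3 CHR matches, and those of Ccnb2 and Cenpf held 3 and 2 CCAAT matches. That of Cdk1 held a CHR between 2 CCAAT matches and an E2F match further upstream. That of Mcm6 held 3 E2F matches, of which 2 overlap in 1 run of capitals, and 2 CCAAT matches. Over the 250 bases upstream, for the 34 members with an entry in the RefSeq table, a CHR match was present in 8 of 17 mitotic genes (47.1%, exact 95% interval 23 to 72.2%), in 2 of 14 S-phase genes (14.3%, 1.78 to 42.8%) and in 19.6% of 27025 genes of the table. CCAAT was present in 16 of 17 mitotic genes (94.1%, 71.3 to 99.9%), in 9 of 14 S-phase genes (64.3%, 35.1 to 87.2%) and in 37.5% of all genes. An E2F match was present in 1 of 17 mitotic genes (5.88%, 0.149 to 28.7%), in 5 of 14 S-phase genes (35.7%, 12.8 to 64.9%) and in 2.16% of all genes. E2F matches in the nearest 100 bases were found in 7.14% of the S-phase genes and 0.981% of all genes. Bases just after the RefSeq gene start were found in a GENCODE transcript of the same gene for 26 of these 34 members. Among the genes with a sequence shown, this failed for Mcm6 and Cdk2. A match is a description of the letters and not a site of binding. Ccna2, Ccne2, Ccnd1, Ccnd2, Aurkb, Tpx2, Mcm4 and Stmn1 are named here without a sequence.

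Both classes were lower in the interstitial populations than in AM. The mitotic sum separated the 3 interstitial populations from each other, and the S-phase sum did not. The summed level of the 21 mitotic genes was 269.1, 255.9 and 274.9 CPM in IM1, 142.4, 171.5 and 168.4 CPM in IM2 and 99.2, 108.8 and 85.1 CPM in IM3, against 1033.6, 1096 and 987.2 CPM in AM. The populations did not overlap, and the mean sum was 25.7% of the AM mean in IM1, 15.5% in IM2 and 9.4% in IM3. That of the 16 S-phase genes was 665.6, 746.4 and 767.6 CPM in IM1, 602.5, 669.5 and 701.1 CPM in IM2 and 670.4, 679.5 and 690.8 CPM in IM3, against 1910, 2115.1 and 1742.4 CPM in AM. Here the 3 interstitial populations overlapped, and their means were 37.8%, 34.2% and 35.4% of the AM mean in IM1, IM2 and IM3. The ratio of the mitotic sum to the S-phase sum was 0.343 to 0.404 for IM1, 0.236 to 0.256 for IM2, 0.123 to 0.16 for IM3 and 0.518 to 0.567 for AM. Without the most abundant mitotic genes of the interstitial cells, Cenpa and Stmn1, the mitotic sums were 19%, 11.5% and 6.44% of the AM mean in IM1, IM2 and IM3. Without Pcna and Mcm6 the S-phase sums were 34.1%, 31.8% and 31.8%. In sorted bulk samples, fewer cells in cycle and less RNA of these genes per cell cannot be told apart.

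**Figure D1:**
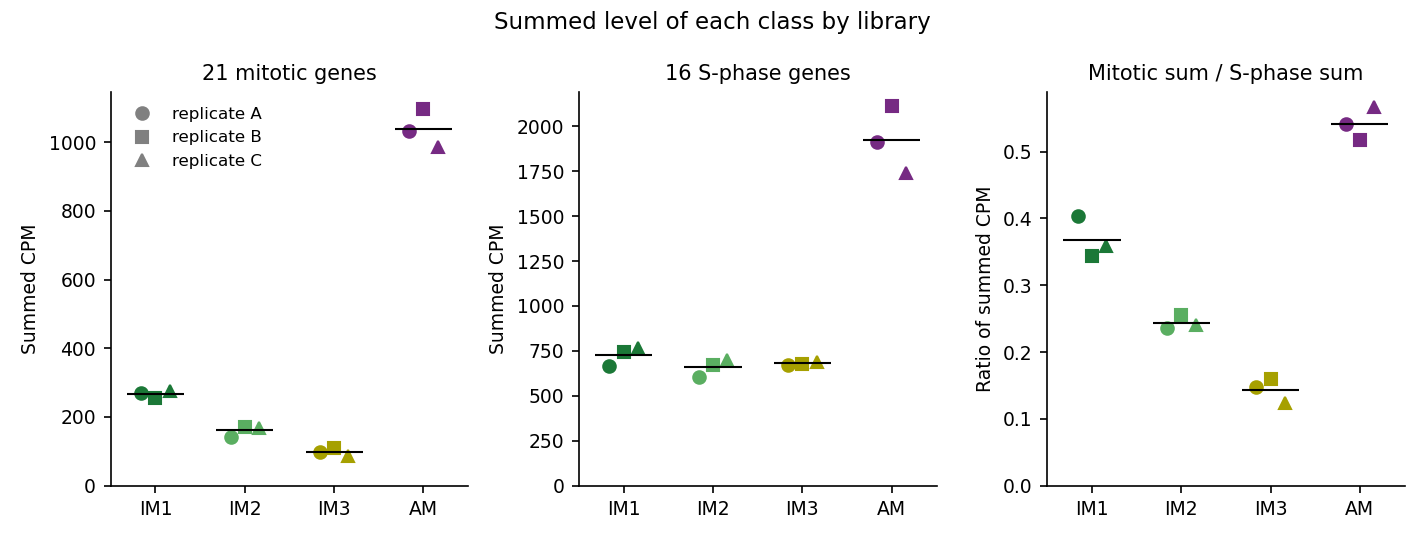
Summed CPM of the 21 mitotic genes, of the 16 S-phase genes and the ratio of the sums, with 1 point per library (circle, square and triangle for replicates A, B and C) and a line at the mean of each population. The mitotic sum lies at 255.9 to 274.9 CPM in IM1, 142.4 to 171.5 in IM2, 85.1 to 108.8 in IM3 and 987.2 to 1096 in AM, while the S-phase sums of the 3 interstitial populations overlap.

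Each member was tested with edgeR's quasi-likelihood test in 1 fit over 14095 genes, with Benjamini-Hochberg adjustment over all of them and a call at an adjusted p under 0.05. All 42 members passed the filter on low counts. For the interstitial mean (IM1, IM2 and IM3 weighted equally) against AM, 21 of 21 mitotic genes and 16 of 16 S-phase genes were called lower, in a comparison in which 28.7% of all genes were called lower and 35.9% higher. The median log2 difference was -3.3 for the mitotic class and -1.57 for the S-phase class, beside 0.1 over all genes tested. By population, 20 mitotic genes were called lower in IM1 (background 25.7% lower and 33.1% higher), 21 in IM2 (26.2% and 34.3%) and 21 in IM3 (25% and 32.4%), and 16 S-phase genes in each. The medians of the mitotic class were -2.38 in IM1, -3.3 in IM2 and -3.97 in IM3, and those of the S-phase class -1.56, -1.58 and -1.56. These 3 comparisons share their AM libraries. Markers of other cell types and the number of genes detected moved with the same split. The summed level of 6 erythroid markers was 0.9 to 73.2 CPM in the interstitial libraries and 345.9 to 426.9 CPM in AM, mostly haemoglobin genes, with Alas2 at 0 to 0.81 CPM in the interstitial libraries and 2.45 to 3.51 CPM in AM. Fibroblast markers summed to 33 to 110.7 CPM in the interstitial libraries and 0.0 to 0.3 CPM in AM, and those of dendritic cells to 35 to 126.7 CPM in the interstitial libraries and 3.4 to 5.6 CPM in AM. B cell markers summed to 32.6 to 68.6 CPM in the interstitial libraries and 0.1 to 1.5 CPM in AM. Epithelial markers summed to 7.5 to 56.9 CPM in the interstitial libraries and 70.3 to 75.9 CPM in AM, and endothelial ones to 28.1 to 99.9 CPM in the interstitial libraries and 101.6 to 118 CPM in AM. These AM sums were almost all Epcam, at 69.74 to 74.67 CPM, and Vwf, at 101.52 to 117.91 CPM. Sftpc, Sftpb, Sftpa1 and Scgb1a1 ran the other way, with Sftpc at 3.99 to 33.73 CPM in the interstitial libraries and 0 to 0.56 CPM in AM. So did Pecam1, Cdh5, Kdr and Tie1, with Pecam1 at 4.72 to 25.08 CPM in the interstitial libraries and 0 to 0.07 CPM in AM. Krt8 was at most 0.77 CPM in every library. Between 18172 and 18908 genes were detected in interstitial libraries and 16050 to 16475 in AM libraries. The part of these in the differences was not tested.

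**Figure D2:**
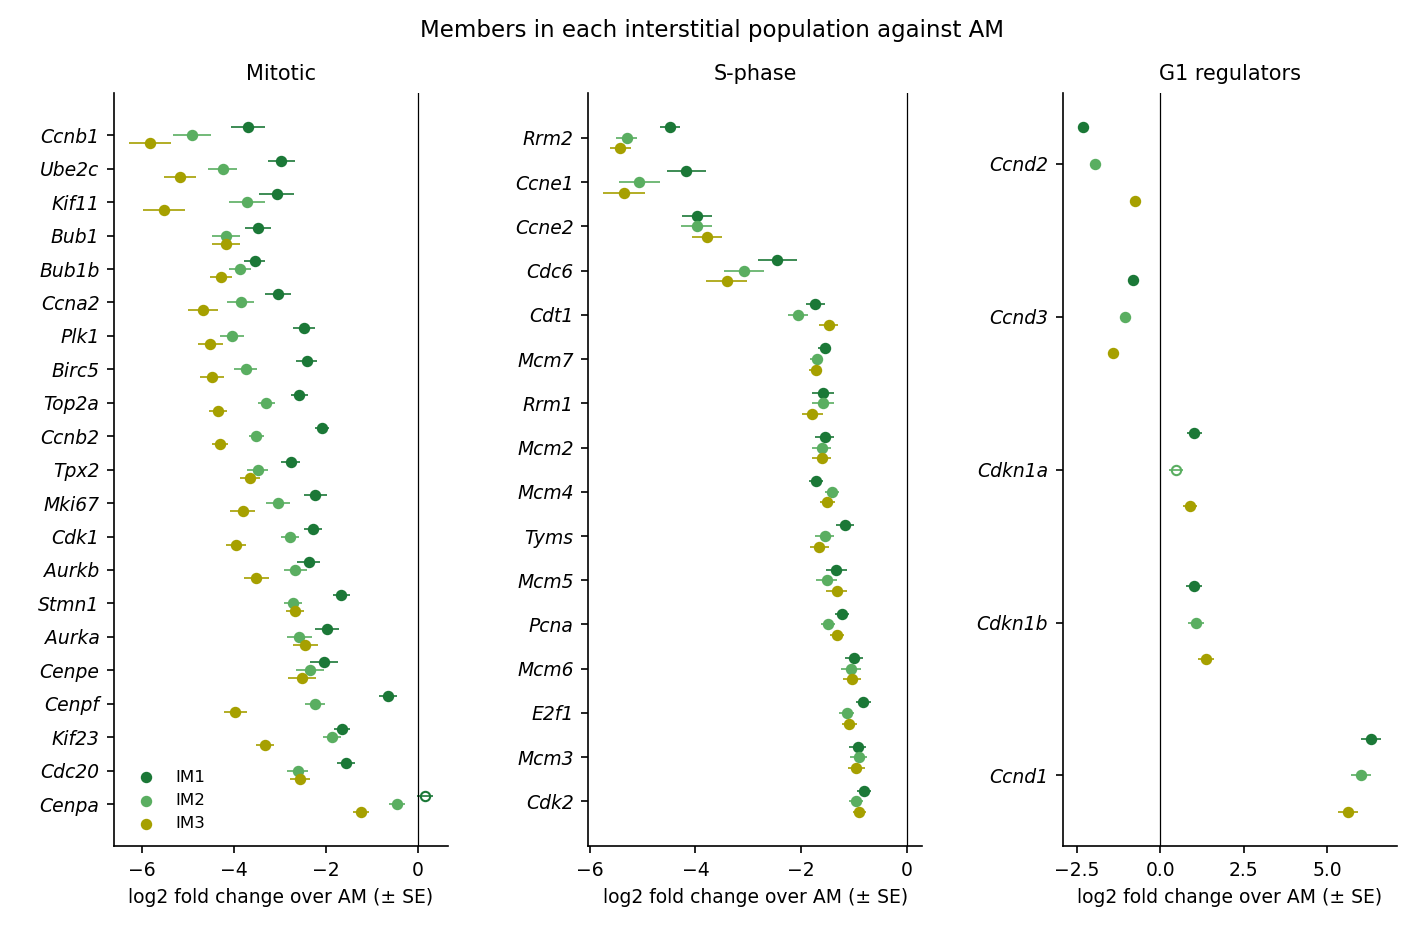
Log2 fold change over AM (horizontal axis, bars are the SE) of every mitotic, S-phase and G1 member in IM1, IM2 and IM3, with filled points for an adjusted p under 0.05. In the mitotic panel the points spread from IM1 to IM3, with Cenpf at -0.66 in IM1 and -3.97 in IM3, whereas the 3 points of most S-phase genes lie close together, as for Mcm2 at -1.56, -1.61 and -1.61.

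Between the interstitial populations most mitotic genes were highest in IM1 and lowest in IM3. In IM1 against IM3, 18 of 21 mitotic genes were called higher and none lower, in a comparison in which 12.7% of all genes were called higher and 11.7% lower, and the median log2 difference was 1.63 beside 0.02 over all genes. The exceptions, not called, were Aurka, Bub1 and Cenpe. In 18 genes every IM1 library lay above every IM3 library, and the share of all genes that separate this way was not computed. These 18 genes include Aurka and leave out Bub1b, in which IM1 replicate A, at 5.24 CPM, lay below every IM3 library. In IM1 against IM2, 6 of 21 were called higher (Ccnb2, Cenpf, Plk1, Birc5, Cdc20 and Stmn1) with 0.49% of all genes higher and 1.22% lower, and the median was 0.73 beside 0 over all genes. That count was 10 with DESeq2, 11 without the filter on low counts and 2 (Ccnb2 and Cenpf) when IM1 and IM2 alone were fitted. The calls over all genes in either direction moved with it, at 591 of 12722 genes with DESeq2, 941 of 24692 without the filter and 71 of 13263 with the pair alone, against 241 of 14095. In IM2 against IM3, 7 of 21 were called higher (Ccnb2, Cdk1, Cenpa, Cenpf, Kif11, Kif23 and Top2a) with 6.49% of all genes higher and 4.94% lower, and the median was 0.79 beside 0. The population means fell in the order IM1, IM2, IM3 in 17 of 21 mitotic genes, in 6 of 16 S-phase genes and in 26.9% of all genes tested. In S-phase genes, 1 of 16 was called higher in IM1 against IM2 and 1 of 16 in IM1 against IM3, in both cases Rrm2, and none was called in IM2 against IM3. Their medians were 0.17, 0.1 and 0.01. Over the 6 MCM helicase genes the differences lay between -0.3 and 0.18 in IM1 against IM2 (SE 0.13 to 0.2), between -0.21 and 0.18 in IM1 against IM3 (SE 0.13 to 0.19) and between -0.19 and 0.09 in IM2 against IM3 (SE 0.13 to 0.2). Whether the classes differ in these differences was not tested. The alveolar marker sum was 161.7 to 292.0 CPM in IM1, 70.2 to 154.7 CPM in IM2 and 70.1 to 79.7 CPM in IM3. The means of this sum were 0.411%, 0.191% and 0.132% of its AM mean. Those of the mitotic sum were 25.7%, 15.5% and 9.4% of the AM mean of the mitotic sum. Most of the alveolar marker sum in IM1 was Chil3. Chil3 was at 122.81 to 242.58 CPM in IM1, 28.83 to 113 CPM in IM2 and 5.87 to 14.95 CPM in IM3. Other alveolar markers ran the other way, with Pparg at 11.62 to 15.63 CPM in IM1 and 40.31 to 49.12 CPM in IM3, and Siglecf at 0.44 to 1.36 CPM in IM1 and 3.15 to 3.51 CPM in IM3. Dendritic cell markers summed to 93.9 to 126.7 CPM in IM1 and IM2 and to 35 to 57.4 CPM in IM3. In IM1 and IM2 that sum was mostly Cd209a and Zbtb46. Cd209a was at 40.79 to 85.64 CPM in IM1 and 2.23 to 7.02 CPM in IM3. Flt3, Dpp4 and Clec9a ran the other way, with Flt3 at 0.91 to 3.76 CPM in IM1 and 7.78 to 24.62 CPM in IM3. The summed B cell and epithelial markers were higher in every IM1 library than in every IM3 library. The part of these in the differences between interstitial populations was not tested.

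**Figure D3:**
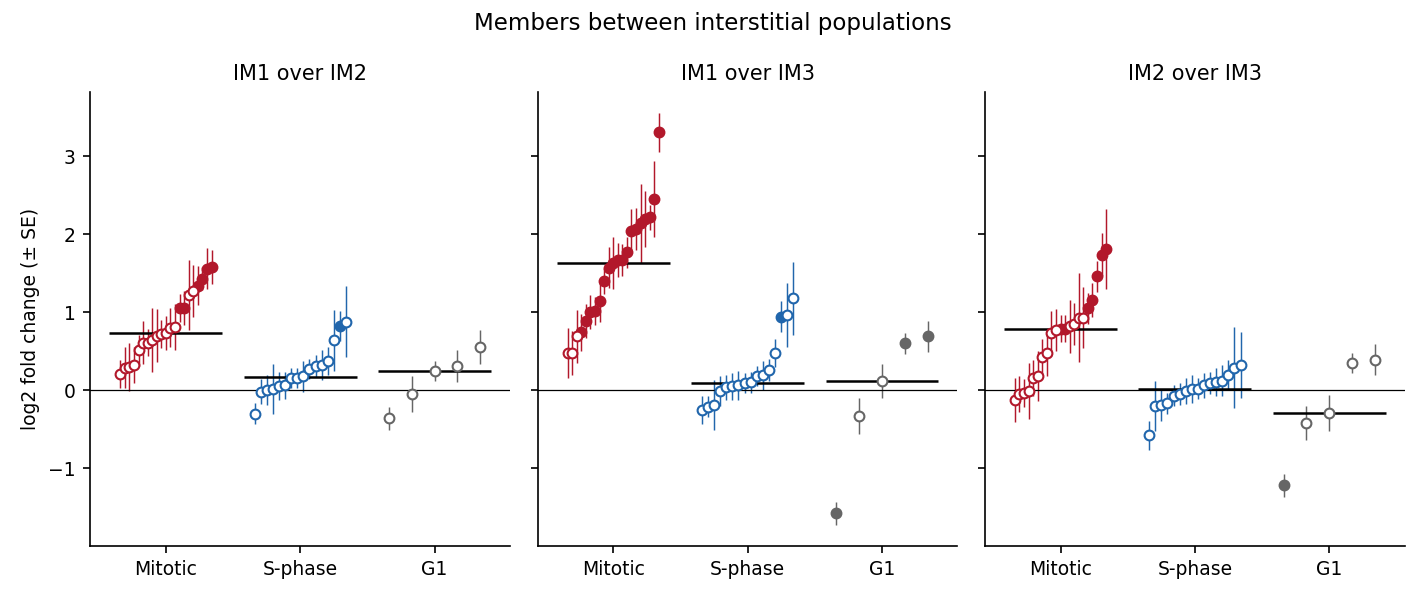
Log2 fold change (± SE) of each member between pairs of interstitial populations, sorted within its class, with filled points for an adjusted p under 0.05 and a line at the class median. In IM1 over IM3 all mitotic points lie above 0 with a median of 1.63, and the S-phase median is 0.1.

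Among the mitotic cyclins and their kinase, Ccnb2 differed between every pair of interstitial populations. Ccnb2, which encodes cyclin B2, had 23.16, 20.76 and 24.78 CPM in IM1, 7.98, 8.07 and 9.46 CPM in IM2 and 4.7, 6.01 and 4.06 CPM in IM3, against 98.08, 96.42 and 98.02 CPM in AM. No 2 populations overlapped. Its log2 difference was 1.43 ± 0.15 (adjusted p = 0.000108) in IM1 against IM2, 2.22 ± 0.16 (adjusted p = 9.38e-08) in IM1 against IM3 and 0.79 ± 0.17 (adjusted p = 0.00426) in IM2 against IM3. Ccnb1, which encodes cyclin B1 and activates CDK1 at entry into mitosis, had 1.05, 2.32 and 2.4 CPM in IM1, 0.45, 0.35 and 1.64 CPM in IM2 and 0.53, 0.51 and 0.27 CPM in IM3, against 24.73, 25.82 and 25.7 CPM in AM. These levels rest on 84, 37 and 19 counts over the 3 libraries of IM1, IM2 and IM3, against 1070 in AM. Ccnb1 was called higher in IM1 than in IM3, by 2.14 ± 0.51 (adjusted p = 0.00585), and was not called between the other pairs. Cdk1, the mitotic kinase itself, had 18.96, 11.41 and 11.81 CPM in IM1, 9.71, 10.66 and 9.14 CPM in IM2 and 3.51, 5.21 and 4.47 CPM in IM3, against 67.26, 75.44 and 61.57 CPM in AM. All 3 IM3 libraries lay below all IM1 and IM2 libraries, with a difference of 1.67 ± 0.22 (adjusted p = 3.3e-05) in IM1 against IM3 and 1.16 ± 0.22 (adjusted p = 0.00179) in IM2 against IM3. Ccna2 had 2.88, 4.18 and 5.9 CPM in IM1, 2.26, 2.95 and 2.27 CPM in IM2 and 0.73, 1.47 and 2.03 CPM in IM3, against 38.32, 39.3 and 31.01 CPM in AM. Its difference was 1.63 ± 0.33 (adjusted p = 0.0018) in IM1 against IM3, and against AM it was -3.86 ± 0.20 over the interstitial mean.

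Cdc20 and Ube2c serve the anaphase-promoting complex, as its mitotic activator and its ubiquitin-conjugating enzyme. Cdc20 had 6.99, 8.29 and 7.33 CPM in IM1, 2.71, 3.37 and 4.79 CPM in IM2 and 3.57, 4.03 and 3.72 CPM in IM3, against 24.24, 22.95 and 20.18 CPM in AM. IM1 lay above both other interstitial populations, which overlapped, by 1.05 ± 0.22 (adjusted p = 0.0215) over IM2 and 1.00 ± 0.22 (adjusted p = 0.00328) over IM3. Leaving out IM1 replicate C, IM2 replicate A or IM2 replicate B lost the call over IM2, at adjusted p = 0.0635, 0.0836 and 0.116. Ube2c had 3.67, 4.71 and 6.29 CPM in IM1, 1.28, 2.24 and 2.52 CPM in IM2 and 0.6, 1.91 and 0.74 CPM in IM3, against 37.27, 39.3 and 39.77 CPM in AM. Ube2c differed by 2.20 ± 0.36 (adjusted p = 0.000302) in IM1 against IM3. In IM1 against IM2 it missed the threshold at 1.27 ± 0.33 (adjusted p = 0.0642), and passed it with the replicate block (adjusted p = 0.0309), without IM1 replicate A (0.0234) and without IM1 replicate B (0.0259). In the interstitial libraries alone with the replicate block it missed it, at adjusted p = 0.0813. The counts of Cdc20 may be affected by reads of Elovl1, and those of Ube2c by reads of Tnnc2. Exons of these genes lie on the opposite strand, and counting did not use strand. The same holds for Exosc9 at Ccna2, Gm44985 at Plk1 and AC167363.2 at Cdkn1a.

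Among the mitotic kinases and checkpoint genes, Plk1 and Birc5 were higher in IM1 than in both other interstitial populations. Plk1, a kinase of mitotic entry and the spindle, had 4.19, 4.97 and 4.22 CPM in IM1, 2.26, 1.12 and 1.2 CPM in IM2 and 1.13, 1.17 and 0.95 CPM in IM3, against 27.53, 23.58 and 23.94 CPM in AM. IM1 lay above IM2 by 1.56 ± 0.26 (adjusted p = 0.00504) and above IM3 by 2.04 ± 0.28 (adjusted p = 5.1e-05), while IM2 and IM3 overlapped. Aurkb, the kinase of the chromosomal passenger complex, had 7.25, 5.77 and 7.98 CPM in IM1, 4.59, 7.36 and 5.23 CPM in IM2 and 4.7, 2.64 and 2.17 CPM in IM3, against 37.41, 39.37 and 32.92 CPM in AM. Only its difference between IM1 and IM3 was called among the interstitial pairs, at 1.14 ± 0.27 (adjusted p = 0.00621). Birc5, which encodes survivin of the same complex, had 5.42, 6.5 and 7.46 CPM in IM1, 1.88, 3.65 and 2.14 CPM in IM2 and 1.65, 1.83 and 1.15 CPM in IM3, against 37.13, 35.09 and 31.67 CPM in AM. IM1 lay above all other interstitial libraries, by 1.34 ± 0.25 (adjusted p = 0.0109) over IM2 and 2.07 ± 0.27 (adjusted p = 3.31e-05) over IM3. The call over IM2 was lost without IM1 replicate C (adjusted p = 0.0589) and without IM2 replicate C (0.0767). Bub1b, which encodes the spindle checkpoint protein BubR1, had 5.24, 11.28 and 12.33 CPM in IM1, 6.93, 8.21 and 8.14 CPM in IM2 and 6.42, 5.72 and 5.28 CPM in IM3, against 108.5, 122.95 and 110.9 CPM in AM. Its difference of 0.74 ± 0.24 (adjusted p = 0.0337) in IM1 against IM3 stayed past the threshold, when IM1 or IM3 libraries were left out in turn, only without IM1 replicate A, and was at adjusted p = 0.0728 and 0.153 without IM1 replicates B and C and 0.0585, 0.09 and 0.112 without IM3 replicates A, B and C. It was also lost when IM1 and IM3 alone were fitted (adjusted p = 0.134) and in the interstitial libraries alone with the replicate block (0.0763). Its partner kinase gene Bub1 had 1.22, 2.19 and 1.69 CPM in IM1, 0.6, 1.47 and 1.07 CPM in IM2 and 0.93, 1.39 and 0.88 CPM in IM3, against 19.48, 18.74 and 19.81 CPM in AM. Bub1 and Aurka, the centrosomal Aurora kinase gene, were called against AM (-3.95 ± 0.20 and -2.33 ± 0.19 over the interstitial mean) and not between interstitial populations. Aurka ranged from 1.52 to 3.71 CPM over the 9 interstitial libraries and from 12.12 to 14.04 CPM in AM.

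The centromere genes held the exception of the mitotic class. Cenpa, which encodes the centromeric histone H3 variant, had 86.34, 56.77 and 65.33 CPM in IM1, 38.32, 46.64 and 51.59 CPM in IM2 and 25.28, 31.17 and 22.73 CPM in IM3, against 63.47, 65.19 and 58.84 CPM in AM. IM1 overlapped AM, with a difference of 0.15 ± 0.17 (adjusted p = 0.463), and Cenpa was the only mitotic gene not called lower in IM1. It was called lower in IM2, at -0.46 ± 0.17 (adjusted p = 0.0297), and in IM3, at -1.24 ± 0.17 (adjusted p = 1.59e-05). The call in IM2 was lost without IM2 replicate A (adjusted p = 0.135), IM2 replicate B (0.0592), AM replicate A (0.0672) and AM replicate B (0.0792). Between the interstitial populations Cenpa differed by 1.40 ± 0.17 (adjusted p = 2.36e-05) in IM1 against IM3 and 0.79 ± 0.17 (adjusted p = 0.00599) in IM2 against IM3. Cenpf, which encodes a large kinetochore protein of G2 and mitosis, had 9.7, 8.22 and 9.02 CPM in IM1, 2.56, 3.02 and 3.41 CPM in IM2 and 0.79, 0.73 and 1.15 CPM in IM3, against 15.83, 14.04 and 12.67 CPM in AM. No 2 populations overlapped, and it had the widest spread of the class, by 1.58 ± 0.22 (adjusted p = 0.00138) in IM1 against IM2, 3.31 ± 0.25 (adjusted p = 1.61e-07) in IM1 against IM3 and 1.74 ± 0.27 (adjusted p = 0.000321) in IM2 against IM3. Its difference of -0.66 ± 0.20 (adjusted p = 0.011) in IM1 against AM missed the threshold without AM replicate A, at adjusted p = 0.0536. Cenpe, a kinetochore motor gene, ranged from 1.79 to 5.77 CPM in the interstitial libraries and from 18.15 to 20.14 CPM in AM, and was not called between interstitial populations. Per kilobase of exon, Cenpa was the highest mitotic gene in the interstitial cells, at 27.8 RPKM (CPM per kilobase of exon) in IM1, 18.2 RPKM in IM2 and 10.5 RPKM in IM3, against 25 RPKM in AM.

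The motor genes Kif23 and Kif11 were higher in both CD206-high populations, IM1 and IM2, than in IM3. Kif23, which encodes a kinesin of the central spindle and of cytokinesis, had 22.54, 27.26 and 26.4 CPM in IM1, 18.37, 22.37 and 24.97 CPM in IM2 and 9.47, 9.02 and 5.41 CPM in IM3, against 82.11, 84.77 and 72.91 CPM in AM. IM3 lay below both others, with differences of 1.67 ± 0.20 (adjusted p = 1.22e-05) in IM1 against IM3 and 1.46 ± 0.20 (adjusted p = 9.23e-05) in IM2 against IM3. Kif11, the kinesin that separates the spindle poles, had 1.57, 2.92 and 5.58 CPM in IM1, 1.88, 2.95 and 1.77 CPM in IM2 and 1.13, 0.44 and 0.27 CPM in IM3, against 26.2, 33.82 and 26.37 CPM in AM. It rests on 27 counts in IM3. It stood at -4.10 ± 0.28 (adjusted p = 2.39e-09) for the interstitial mean against AM, and its differences between populations were 2.45 ± 0.49 (adjusted p = 0.00172) in IM1 against IM3 and 1.81 ± 0.51 (adjusted p = 0.0297) in IM2 against IM3. The second was lost without IM2 replicate A (adjusted p = 0.0519), IM2 replicate B (0.116), IM3 replicate B (0.122) and IM3 replicate C (0.132), and in the fit of the interstitial libraries with the replicate block (0.0755). Stmn1, which encodes the microtubule destabiliser stathmin, had 34.78, 25.27 and 27.31 CPM in IM1, 11.82, 16.55 and 13.75 CPM in IM2 and 17.81, 13.71 and 11.64 CPM in IM3, against 98.99, 91.72 and 86.46 CPM in AM. Here IM1 stood above IM2 and IM3, which overlapped, by 1.05 ± 0.18 (adjusted p = 0.00646) and 1.01 ± 0.18 (adjusted p = 0.000716). Tpx2, which encodes a spindle assembly factor, had 4.72, 4.84 and 7.14 CPM in IM1, 3.24, 4 and 2.9 CPM in IM2 and 2.58, 3.67 and 2.84 CPM in IM3, against 38.95, 39.44 and 35.79 CPM in AM. Its difference of 0.89 ± 0.22 (adjusted p = 0.00883) in IM1 against IM3 was lost without IM1 replicate C (adjusted p = 0.0546) and when IM1 and IM3 alone were fitted (0.0686).

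Mki67 and Top2a, the usual marks of cycling cells, followed the same order. Mki67 had 10.05, 18.77 and 15.76 CPM in IM1, 8.05, 10.17 and 7.44 CPM in IM2 and 5.1, 6.82 and 3.18 CPM in IM3, against 64.67, 81.68 and 64.51 CPM in AM. The difference in IM1 against IM3 was 1.57 ± 0.26 (adjusted p = 0.000417). Those of 0.80 ± 0.25 (adjusted p = 0.14) in IM1 against IM2 and 0.77 ± 0.27 (adjusted p = 0.0857) in IM2 against IM3 missed the threshold, and passed it with the replicate block at adjusted p = 0.0457 and 0.0228. In the interstitial libraries alone with the replicate block both missed it, at adjusted p = 0.0947 and 0.0547. Without IM1 replicate A the first passed as well (0.0231), and without IM3 replicate B the second (0.0396). Top2a, which encodes the topoisomerase that untangles sister chromatids, had 13.46, 20.43 and 17.45 CPM in IM1, 12.12, 11.01 and 8.14 CPM in IM2 and 5.23, 4.33 and 5.48 CPM in IM3, against 93.11, 112.2 and 102.6 CPM in AM. No 2 populations overlapped, and Top2a differed by 1.77 ± 0.20 (adjusted p = 6.88e-06) in IM1 against IM3 and 1.05 ± 0.20 (adjusted p = 0.00195) in IM2 against IM3, with 0.72 ± 0.18 (adjusted p = 0.0634) in IM1 against IM2.

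In the S-phase class the genes fell into a small group with large differences from AM and a larger group with moderate ones. Rrm2, which encodes the cell cycle regulated subunit of ribonucleotide reductase, had 6.47, 9.09 and 10.77 CPM in IM1, 4.59, 5.33 and 5.11 CPM in IM2 and 4.57, 5.35 and 3.92 CPM in IM3, against 188.2, 229.1 and 177.2 CPM in AM. Per kilobase it stood at 3.17 ± 0.783 RPKM in IM1, 1.81 ± 0.137 RPKM in IM2 and 1.67 ± 0.258 RPKM in IM3, against 71.5 ± 9.88 RPKM in AM (SD, n = 3 each), where only Pcna was higher among the 42 members. Rrm2 was also the S-phase gene called between interstitial populations, by 0.82 ± 0.19 (adjusted p = 0.045) in IM1 against IM2 and 0.94 ± 0.20 (adjusted p = 0.00239) in IM1 against IM3. The call over IM2 was lost without IM1 replicate C (adjusted p = 0.193), without IM2 replicates A, B and C (0.135, 0.132 and 0.136), when IM1 and IM2 alone were fitted (0.339) and in the fit of the interstitial libraries with the replicate block (0.0947). Ccne1, which encodes cyclin E1 and acts at the G1/S boundary, had 1.4, 0.6 and 0.78 CPM in IM1, 0.45, 0.42 and 0.57 CPM in IM2 and 0.13, 0.51 and 0.54 CPM in IM3, against 17.94, 17.82 and 13.33 CPM in AM. Ccne2, its paralog, had 0.96, 1.72 and 1.82 CPM in IM1, 1.05, 2.24 and 1.26 CPM in IM2 and 1.72, 1.69 and 1.83 CPM in IM3, against 22.7, 28.35 and 21.14 CPM in AM. Their differences over the interstitial mean were -4.86 ± 0.25 and -3.91 ± 0.20, on 75 and 207 interstitial counts over 9 libraries. Cdc6, which loads the MCM helicase onto origins, had 2.18, 3.32 and 2.79 CPM in IM1, 0.68, 2.6 and 2.02 CPM in IM2 and 2.12, 1.25 and 0.88 CPM in IM3, against 14.99, 17.61 and 13.04 CPM in AM. It differed by -2.98 ± 0.26 (adjusted p = 6.21e-08) over the interstitial mean and was not called between interstitial populations.

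The other 12 S-phase genes stood at -1.76 to -0.89 on the log2 scale over the interstitial mean. The helicase genes Mcm2 to Mcm7 stood at between -0.93 (Mcm3) and -1.67 (Mcm7). Mcm6 had 66.67, 106.7 and 112.8 CPM in IM1, 80.02, 92.23 and 101.6 CPM in IM2 and 86.71, 94.9 and 94.19 CPM in IM3, against 184.0, 218.8 and 170.1 CPM in AM. Mcm3 had 53.74, 75.48 and 81.55 CPM in IM1, 60.68, 71.54 and 81.8 CPM in IM2 and 68.64, 65.64 and 71.52 CPM in IM3, against 138.5, 142.5 and 120.1 CPM in AM. In both genes all 9 interstitial libraries lay below all AM libraries, and IM1 replicate A was the lowest of its population. Pcna, which encodes the sliding clamp of the replicative polymerases, had 243.5, 182.4 and 175.4 CPM in IM1, 165.8, 166.4 and 164.9 CPM in IM2 and 182.2, 189.4 and 187.8 CPM in IM3, against 484.9, 506.9 and 416.6 CPM in AM. It was the highest member per kilobase in AM and the highest S-phase gene in the interstitial populations, at 83.5 RPKM in IM1, 69.0 RPKM in IM2 and 77.7 RPKM in IM3, against 196.0 RPKM in AM. The smallest differences from AM in the class, with that of Mcm3, were those of the S-phase kinase gene Cdk2, at -0.89 ± 0.10, and of E2f1, which encodes the activating E2F factor, at -1.02 ± 0.11. The nucleotide genes Rrm1 and Tyms, for the constitutive subunit of ribonucleotide reductase and for thymidylate synthase, stood at -1.66 ± 0.15 and -1.47 ± 0.13, and the licensing gene Cdt1 at -1.76 ± 0.14. Reads of Pmel may affect the counts of Cdk2, those of Ints8 Ccne2 and those of Ap4m1 and Cops6 Mcm7, since these lie on opposite strands.

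The G1 regulators moved in both directions, with 2 of 5 called lower and 3 of 5 higher in the interstitial mean against AM, where 28.7% of all genes were called lower and 35.9% higher. Ccnd1, which encodes cyclin D1, had 50.51, 30.91 and 34.97 CPM in IM1, 30.79, 32.19 and 30.97 CPM in IM2 and 26.61, 19.07 and 26.05 CPM in IM3, against 0.63, 0.56 and 0.22 CPM in AM. AM held 20 counts of it over 3 libraries, and the log2 difference was 5.99 ± 0.29 (adjusted p = 3.95e-11) over the interstitial mean. Ccnd2, which encodes cyclin D2, had 25.95, 36.48 and 36.85 CPM in IM1, 37.56, 41.66 and 48.18 CPM in IM2 and 92.8, 97.68 and 106.8 CPM in IM3, against 171.0, 152.9 and 172.8 CPM in AM. It was called lower than AM in every interstitial population, at -2.32 ± 0.15 in IM1, -1.96 ± 0.15 in IM2 and -0.74 ± 0.15 in IM3. Its order within the interstitial cells was the reverse of the mitotic one, at -1.58 ± 0.15 (adjusted p = 1.57e-06) in IM1 against IM3 and -1.22 ± 0.15 (adjusted p = 3.8e-05) in IM2 against IM3. Ccnd3, which encodes cyclin D3, had 82.84, 68.98 and 64.03 CPM in IM1, 59.77, 61.65 and 60.1 CPM in IM2 and 48.65, 52.88 and 41.27 CPM in IM3, against 114.3, 128.5 and 133.8 CPM in AM. Ccnd3 differed by 0.60 ± 0.13 (adjusted p = 0.00438) in IM1 against IM3 and Ccnd1 by 0.69 ± 0.20 (adjusted p = 0.0203). The call of Ccnd1 was lost without IM1 replicate A (adjusted p = 0.0734), without IM3 replicate B (0.101) and when IM1 and IM3 alone were fitted (0.0562). Per kilobase, Ccnd1 was the highest D cyclin in IM1 and IM2, at 10.1 and 8.17 RPKM, and Ccnd2 was the highest in IM3 and AM, at 17.4 and 29 RPKM. The counts of Ccnd1 may be affected by reads of LTO1, those of Ccnd3 by Bysl and those of Ccnd2 by 9330179D12Rik and Gm43126, which lie on the opposite strand.

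**Figure D4:**
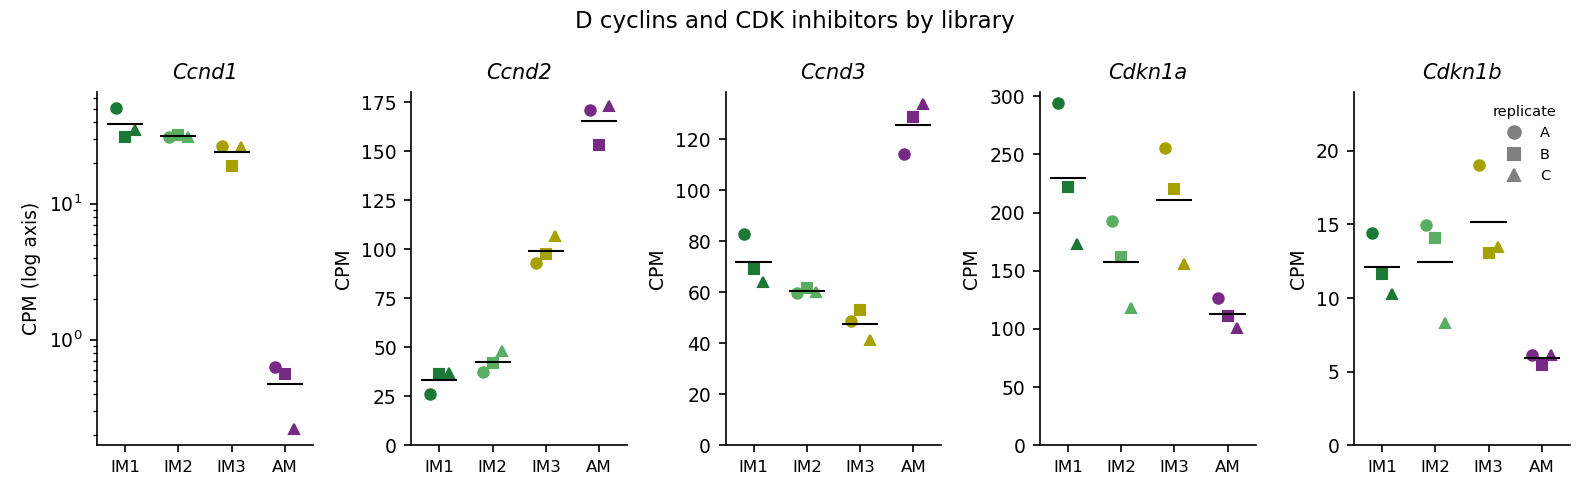
CPM of the D cyclins Ccnd1, Ccnd2 and Ccnd3 and of the CDK inhibitors Cdkn1a and Cdkn1b in each library (circle, square and triangle for replicates A, B and C), with a line at each population mean and a log axis for Ccnd1 alone. Ccnd1 lies at 19.07 to 50.51 CPM in the interstitial libraries and 0.22 to 0.63 CPM in AM, and Ccnd2 is highest in AM and, among interstitial cells, in IM3.

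The CDK inhibitors were higher in the interstitial mean. Cdkn1a, which encodes p21, had 294.0, 222.4 and 172.6 CPM in IM1, 192.6, 161.5 and 117.9 CPM in IM2 and 255.6, 220.2 and 156.0 CPM in IM3, against 126.7, 111.0 and 100.4 CPM in AM. Its log2 difference was 0.80 ± 0.19 (adjusted p = 0.00134) over the interstitial mean, 1.03 ± 0.22 (adjusted p = 0.000816) in IM1 and 0.90 ± 0.22 (adjusted p = 0.00227) in IM3, and it was not called in IM2, at 0.48 ± 0.22 (adjusted p = 0.0674). Between the interstitial populations it was not called in the fit without a block. With the replicate block it was called higher in IM1 than in IM2 by 0.54 ± 0.11 (adjusted p = 0.0208) and lower in IM2 than in IM3, at -0.42 ± 0.11 (adjusted p = 0.0232), and in the interstitial libraries alone with the block at adjusted p = 0.018 and 0.0167. Cdkn1b, which encodes p27, had 14.42, 11.61 and 10.25 CPM in IM1, 14.98, 14.1 and 8.32 CPM in IM2 and 19.06, 13.05 and 13.46 CPM in IM3, against 6.1, 5.47 and 6.11 CPM in AM. All 9 interstitial libraries lay above all AM libraries, with a difference of 1.16 ± 0.21 (adjusted p = 0.000159), and no interstitial pair was called.

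Genes outside the 42 members, in 8 lists of the same processes, were tested in the same fit, in which 28.7% of all genes were called lower and 35.9% higher for the interstitial mean against AM. In the list of spindle checkpoint and kinetochore genes 23 of 26 tested genes were called lower in the interstitial mean against AM and 1 higher (median -2.33), and in that of spindle motors, condensation and cytokinesis 35 of 37 were lower and 1 higher (median -2.7). Ska1, Nuf2 and Ska3 of the kinetochore stood at -4.14, -4.02 and -3.71, and Esco2, Nusap1 and Prc1 at -4.55, -4.3 and -3.87. The exceptions were Mis18a, which primes the centromere for CENP-A, at 0.4 ± 0.14, and Espl1, which encodes separase, at 0.73 ± 0.1. The call of Mis18a was lost without any single AM library (adjusted p = 0.0987, 0.0582 and 0.0543 without A, B and C). In the list of origin licensing and the replisome 35 of 42 were lower and none higher (median -0.88), led by Mcm10, Clspn and Cdc45 at -3.71, -3.47 and -2.94. In that of nucleotide supply 10 of 17 were lower (median -0.5), among them Shmt1 and Dut at -1.7 and -1.56, and 1 was higher, Rrm2b, the p53-induced subunit of ribonucleotide reductase, at 0.93 ± 0.18. In IM1 against IM3, 11 of 26 kinetochore genes and 18 of 37 spindle genes were called higher and 0 and 2 lower, beside 4 of 42 licensing genes higher and 0 lower, and 12.7% of all genes higher and 11.7% lower. The medians were 0.86, 1.07 and 0.25. In IM1 against IM2 the counts called higher in these lists were 1, 2 and 0, beside 0.49% of all genes. In IM2 against IM3 they were 1, 5 and 0, beside 6.49% of all genes, with 2 spindle genes called lower in IM2 against IM3.

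**Figure D5:**
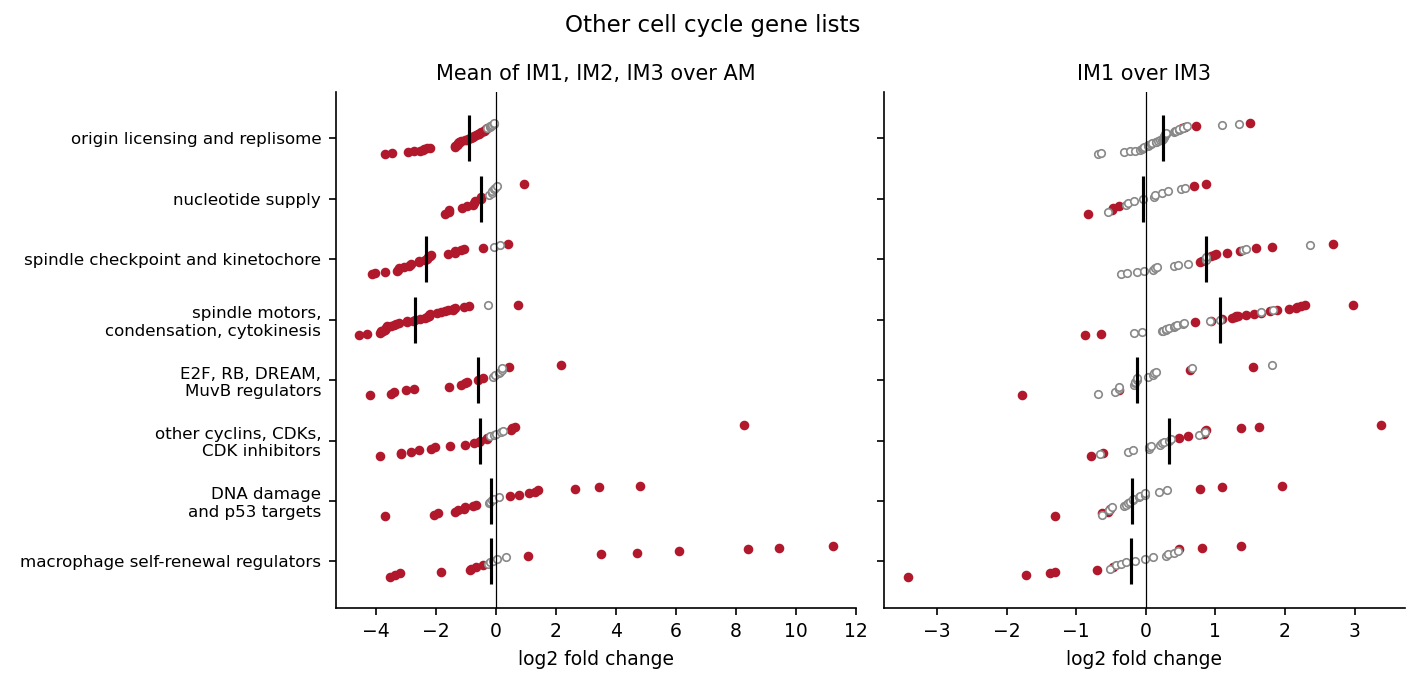
Log2 fold change of the genes of 8 other lists, for the mean of IM1, IM2 and IM3 over AM and for IM1 over IM3, with filled points for an adjusted p under 0.05 and a line at each list's median. The kinetochore and spindle lists have medians of -2.33 and -2.7 over AM and 0.86 and 1.07 in IM1 over IM3, and the licensing list -0.88 and 0.25.

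Regulators of the cycle were called in both directions, to be read against the 28.7% of all genes called lower and 35.9% called higher. Of 19 E2F, RB, DREAM and MuvB genes 11 were called lower in the interstitial mean and 2 higher (median -0.59). E2f2, an activating E2F, stood at -4.21 ± 0.17, with 1.236 ± 0.599 CPM in IM1, 2.927 ± 0.395 CPM in IM2 and 4.386 ± 1 CPM in IM3, against 47.12 ± 4.29 CPM in AM (SD, n = 3 each). E2f7, a repressive E2F induced in S phase, stood at -3.49 ± 0.34 and Mybl2, the MuvB partner of G2/M genes, at -3.4 ± 0.4. E2f5, which acts with the RB-like proteins, was higher by 2.17 ± 0.2, and Lin9, a MuvB subunit, by 0.44 ± 0.13, a call lost without AM replicate B (adjusted p = 0.0667). Of 23 other cyclins, CDKs and CDK inhibitors 14 were lower and 4 higher (median -0.52). Cdkn1c, which encodes the inhibitor p57, had 22.8 ± 5.53 CPM in IM1, 18.19 ± 2.21 CPM in IM2 and 12.42 ± 1.09 CPM in IM3, against 2 counts over the 3 AM libraries, a ratio of 370.0 with a 95% counting interval of 102.0 to 3060.0. Cdc25c, the phosphatase that activates CDK1, and Cdkn2b, which encodes p15, stood at -3.88 ± 0.43 and -3.18 ± 0.33. Skp2, which encodes the ubiquitin ligase subunit for p27, was higher by 0.62 ± 0.14, and Cdkn2c, which encodes p18, by 0.53 ± 0.16, a call lost without AM replicate C (adjusted p = 0.0801).

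Of 22 genes of the DNA damage checkpoint and of p53 targets 9 were called lower and 8 higher (median -0.17), near the shares over all genes. Sesn1, a stress-induced sestrin, was higher by 4.79 ± 0.22, Btg2, an antiproliferative p53 target, by 3.43 ± 0.15 and Plk2, a stress-induced polo-like kinase gene, by 2.65 ± 0.14, while Phlda3, another p53 target, stood at -3.71 ± 0.14. Of 20 regulators tied to macrophage self-renewal 8 were lower and 7 higher (median -0.15), also near the 28.7% and 35.9% over all genes. Maf, whose product is known to restrain macrophage division, was higher. Maf had 273.2 ± 48.8 CPM in IM1, 248.4 ± 44.7 CPM in IM2 and 105.6 ± 3.54 CPM in IM3 (SD, n = 3 each), against 3 counts over the 3 AM libraries, a ratio of 2890.0 with a 95% counting interval of 989.0 to 14000.0. Egr1, an immediate early gene, was higher by 8.39 ± 0.34. Genes of a list are not independent of one another.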

How the data were processed

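RNA from about 50000 sorted cells per library was amplified with SMART-Seq v4 from 2 ng and sequenced on Ion Proton, per the labels' protocols. The authors deposited counts of reads per gene. Per the submitters' processing notes the tools were STAR 2.5.1b, Subread 1.5.0-p1, DESeq2 1.8.1 and R 3.2.0 with build mm10. Per the file headers, featureCounts counted without strand on Ensembl 78 gene models, so reads of overlapping genes on opposite strands cannot be told apart (11 members). The counts of 38 sequencing runs were summed to 12 libraries, 3 to 5 runs each, with 71.06 to 77.6% of reads assigned to genes. Of 43346 genes, 98.0% had a symbol.

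Counts were tested with edgeR 4.0.16 (R 4.3.3) by the quasi-likelihood test, with TMM scaling and filterByExpr at a minimum count of 10, in 1 fit of the 4 populations without a block, for 7 comparisons. The p-values were adjusted by Benjamini-Hochberg over 14095 genes and called under 0.05. CPM used TMM-scaled library sizes, and RPKM divided them by exon length. Alternatives were RLE and upper-quartile scaling, DESeq2 1.42.0, no filter, a fit of only the populations compared, a replicate block and leaving out each library. On simulated data of the interstitial mean against AM (13766 genes) 72.2% of genes changed by 1 on the log2 scale and 95.9% of those changed by 2 were recovered, and for IM1 against IM3 (13741 genes) 68.1% and 85.9%. Few genes were changed, with 97 tested at each size in the first and 94 and 99 in the second. Unchanged genes called numbered 4 and 10. In the data 28.7% of genes were called lower and 35.9% higher in the first comparison, so these shares may not hold there. The replicate letters were checked by the correlation of deviations from the population means. For libraries of the same letter it was 0.17 to 0.29 between IM1 and IM2 and 0.14 to 0.19 between IM2 and IM3. It was -0.12 to 0.17 between IM1 and IM3 and -0.08 to 0.05 with AM. These weak correlations do not settle whether the letters pair libraries.

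The members and lists were chosen with earlier results of these data known. Values in every library are given for the 4 members of each class with the largest difference from AM and for members called between interstitial populations. Of other lists, the 3 called genes with the largest difference and up to 3 called against the list's direction are named. Some genes that this rule names are not reported here. The symbols Sgol1 and Sgol2a of those lists were not matched. Promoter sequences came from RefSeq (GRCm38.p6).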

Additional observations from a re-analysis of the deposited data

Results flagged for a closer look

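A difference between 2 interstitial populations is also the difference between their contrasts with AM, since both are set against the same AM libraries, and the edgeR test between the populations is the test of it. By that test 18 of 21 mitotic members, 1 of 16 S-phase members and 3 of 5 G1 regulators differed from AM unequally in IM1 and IM3. Of all genes, 12.7% were called higher and 11.7% lower in IM1 against IM3. Between IM1 and IM2 the counts were 6 mitotic members and 1 S-phase member, and between IM2 and IM3 they were 7 mitotic members and 1 G1 regulator. The shares of all genes called higher and lower were 0.49% and 1.22% in IM1 against IM2 and 6.49% and 4.94% in IM2 against IM3. No group had enough libraries for a search for single libraries far from their group.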

How the results depend on the processing

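For the interstitial mean against AM, no member's call was lost in any of 714 pairs of member and alternative. For single populations against AM 5 of 1488 were lost, all of Cenpf or Cenpa, and between interstitial populations 32 of 546. The 546 include pairs of Mki67, Ube2c and Cdkn1a that were not called in the fit without a block and so had no call to lose. Of these, 11 gained a call in IM1 against IM2 and 6 in IM2 against IM3. No member changed direction. In IM1 against IM2, where 6 mitotic members were called higher, the count was 10 with DESeq2, 11 with no filter, 2 with only IM1 and IM2 fitted and 4 to 9 on leaving out a library. The S-phase count of 1 was 0 with only those populations fitted and in the interstitial libraries with the replicate block, and 0 to 1 on leaving out a library. The G1 count of 0 was 1 with no filter, with the replicate block and in the interstitial libraries with the block. Over all genes, 241 were called in this pair, 1904 without IM1 replicate B, 591 with DESeq2, 941 with no filter and 71 with only the pair fitted. In IM1 against IM3 the S-phase count of 1 was 2 with upper-quartile scaling, DESeq2 or no filter and 1 to 3 on leaving out a library, with 3 without IM1 replicate B. The G1 count of 2 was 1 with only the pair fitted and 1 to 2 on leaving out a library. In IM2 against IM3 the S-phase count of 0 lower was 1 with DESeq2 and 0 to 1 on leaving out a library (1 without IM3 replicate B). The G1 count of 1 lower was 2 with the replicate block and in the interstitial libraries with the block. The fit of interstitial libraries with the block was chosen after seeing the data. Without TMM factors the mitotic sum was 276.6 CPM in IM1 and 961.1 CPM in AM. In the 100 bases next to the gene start, E2F matches were in 7.14% of S-phase and 0% of mitotic members. The cause of these shifts was not tested. Each leave-one-out fit also rests on fewer libraries. Depth limits Ccnb1, Ccne1 and Kif11 in IM3, at 19, 17 and 27 counts.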

Other observations

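Cdkn1a, which encodes p21, was the 1 member of 42 (2.38%) whose libraries stood in the same order, A above B above C, in all 4 populations. Of all genes tested, 149 of 14095 (1.06%) kept 1 order of the letters in all 4 populations. The letters are names of replicates and carry no order of their own.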
